A study of Saccharomyces cerevisiae with 16 samples.

Results

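The 10 genes described here encode the enzymes of lower glycolysis in budding yeast, from the aldolase to pyruvate kinase: FBA1, TPI1, TDH1, TDH2, TDH3, PGK1, GPM1, ENO1, ENO2 and CDC19. They were chosen by name among 6002 nuclear protein-coding genes, and every peak of histone H3 lysine 4 trimethylation (H3K4me3) that overlapped one of these genes or the 500 bp on either side was taken. The rule found 145 of the 30753 deposited peaks, 16 to 20 in each library. At 9 of the 10 genes peaks lay over the gene in all 8 libraries, for most genes along nearly the whole length, whereas TDH1 had no peak within it in any library.

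The mark was mapped by CUT&RUN, an assay that uses an antibody to bring a nuclease to marked nucleosomes and sequences the fragments it releases. The sample titles, however, name the assay ChIP. All cells were the haploid strain BY4741 and carried a synthetic human HPRT1 locus or its reversed form, HPRT1R. In 4 libraries the synthetic DNA was on a yeast artificial chromosome (YAC) and the cells grew in SC-Leu, a synthetic medium without leucine (HPRT1 YAC and HPRT1R YAC, 2 libraries each). In the other 4 it was integrated on chromosome XI and the cells grew in the rich medium YPD (HPRT1 integrated and HPRT1R integrated, 2 libraries each), so configuration and medium cannot be told apart. All cultures grew at 30 °C for 6 hours from an optical density of 0.1 to about 0.6. None of the groups lacked synthetic DNA. Nothing in the labels says that the libraries came from separate cultures, and p-values therefore measure a spread between libraries that may be technical. The 8 IgG control samples were not analysed here.

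Glycolysis splits a hexose into triose phosphates, oxidises them and ends in pyruvate, and in yeast growing on glucose its enzymes are among the most abundant proteins of the cell. Their genes are driven by the activators Gcr1 and Rap1. H3K4me3 is laid down by the COMPASS complex at the beginning of transcribed genes, and in yeast it usually fades along the gene body. Several steps are encoded by paralogs that are used under different conditions: TDH3 is the main glyceraldehyde-3-phosphate dehydrogenase gene of growing cells, TDH1 is known as the form of resting or stressed cells, ENO2 is the glucose-induced enolase, and CDC19 is the main pyruvate kinase beside the minor PYK2.

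The lists held 3463 to 4049 peaks. The local read depth was solved from the fold and the p-value that the authors' caller gave each peak. The expected pileup, the number of reads the caller expected at a place, had a genome-wide level of 76.2 to 98.9 reads, and the summits of the 145 peaks lay under 124 to 271 reads, which sets the counting error of each fold. HPRT1R YAC replicate 1 had the fewest peaks and the lowest median fold (1.86, against 2.04 to 2.36 in the other 7 libraries), and its values are named where they matter. HPRT1 YAC replicate 2 carries 1 label that names HPRT1R. Between 15 and 37 peaks per library fell on mitochondrial DNA, which carries no histones; a call alone is therefore no proof of the mark. A peak list cannot tell a mark in fewer cells from less of the mark in each cell.

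Positions are counted from the annotated start of each gene, which is the first base of the start codon, along the direction of transcription. Negative positions lie upstream. By the RefSeq annotation of assembly R64, FBA1 (YKL060C) lies on chromosome XI from 326408 to 327487 on the minus strand, TPI1 (YDR050C) on chromosome IV from 555726 to 556472, minus, and PGK1 (YCR012W) on chromosome III from 137746 to 138996, plus. TDH1 (YJL052W) lies on chromosome X from 338271 to 339269, plus, TDH2 (YJR009C) on the same chromosome from 453683 to 454681, minus, and TDH3 (YGR192C) on chromosome VII from 882812 to 883810, minus. GPM1 (YKL152C) lies on chromosome XI from 163642 to 164385, minus, ENO1 (YGR254W) on chromosome VII from 1000927 to 1002240, plus, ENO2 (YHR174W) on chromosome VIII from 451327 to 452640, plus, and CDC19 (YAL038W) on chromosome I from 71786 to 73288, plus. The genes are 744 to 1503 bp long. Where 4 pairs of values follow without labels, they stand in the order HPRT1 YAC, HPRT1 integrated, HPRT1R YAC, HPRT1R integrated, with replicate 1 before replicate 2.

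**Figure D1:**
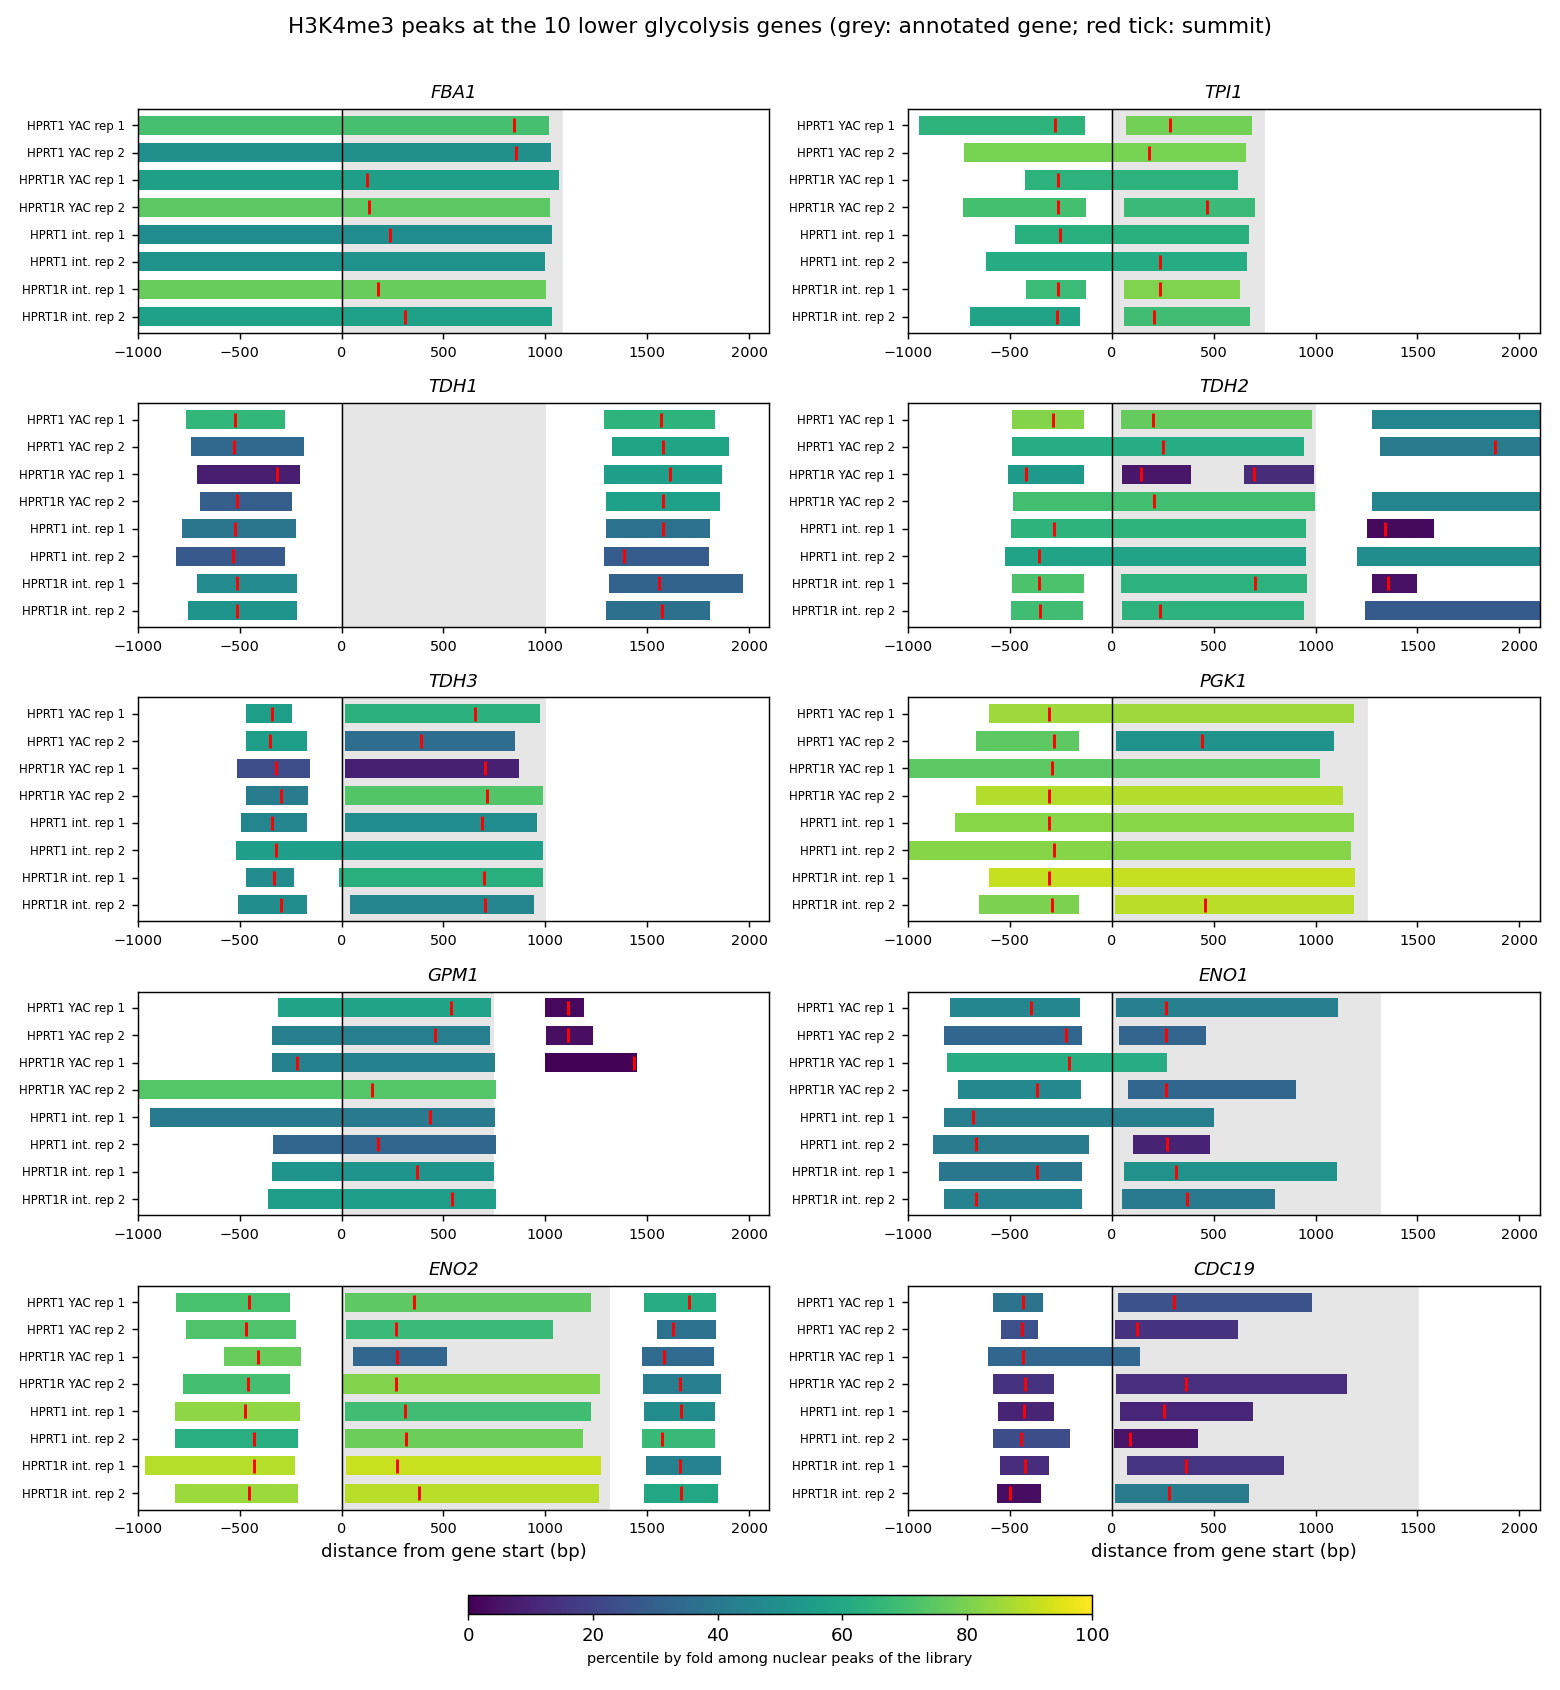
Each panel shows 1 gene, with distance from its start in bp on the horizontal axis (cut at both ends) and 1 row for each of the 8 libraries; bars are H3K4me3 peaks, coloured by their percentile by fold among the nuclear peaks of the same library, red ticks are summits and grey is the annotated gene. TDH1 is flanked by peaks and has none inside the gene, while the other 9 genes are under peaks in every library.

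Peaks lay at the gene start in all libraries for 9 of the 10 genes. A gene was counted as marked at its start when any base between 200 bp before and 500 bp after it was under a peak. Among all 6002 genes, 66.5% were marked in all 8 libraries by this rule. TDH1 was marked in 1 library, HPRT1 YAC replicate 2, where its upstream peak ended at -182, just inside the window. The nearest peak outside it, in HPRT1R YAC replicate 1, ended at -203. A peak within the annotated gene was present in all 8 libraries for the same 9 genes, against 64.6% of all genes. TDH1 had none in any library, as did 15.0% of all genes.

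The peaks reached far into the genes. The share of the annotated gene under peaks, called body coverage here, had a median of 88.0% over the 10 genes. It was 34.0% over the 2165 protein-coding genes of 744 to 1503 bp and 23.0% over all genes. This difference was described and not tested, since the genes were chosen by name. In the last 200 bp of the gene, where H3K4me3 is usually low, the 10 genes were under peaks for 48.5% on average, against 16.3% in genes of like length. The medians over these genes were 54.6% and 0%. GPM1 reached 98.6% ± 2.69 there, TDH2 83.5% ± 10.9, TDH3 74.1% ± 27.6 and FBA1 73.0% ± 10.4 (SD, n = 8 each). ENO1, CDC19 and TDH1 had 0% there in all 8 libraries.

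**Figure D2:**
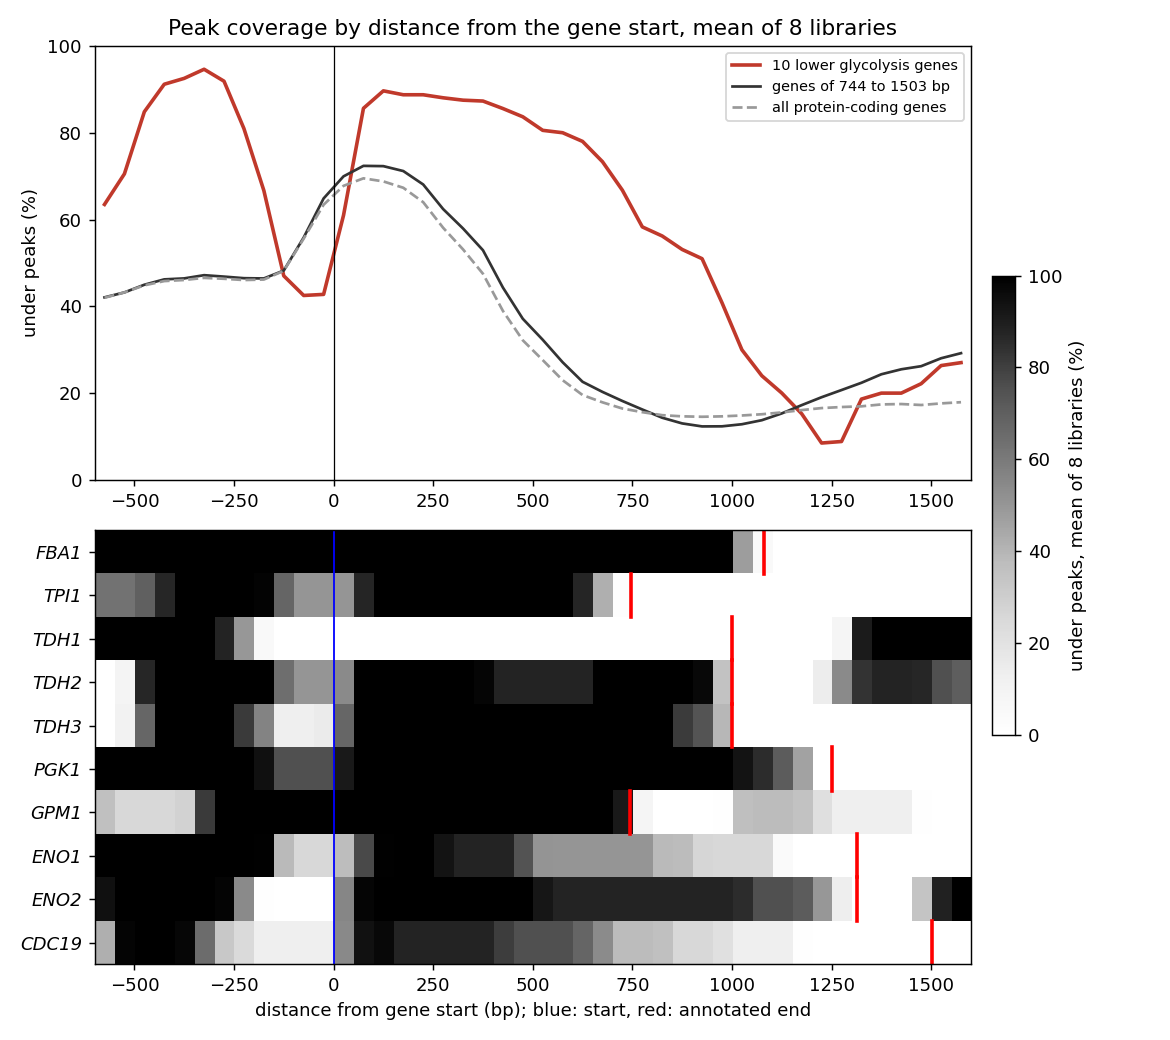
Upper panel: percent of bases under H3K4me3 peaks (mean of 8 libraries) in bins of 50 bp by distance from the gene start, for the 10 lower glycolysis genes, for 2165 genes of 744 to 1503 bp and for all 6002 protein-coding genes. Lower panel: the same for each of the 10 genes, in grey, with the start in blue and the annotated end in red; coverage is high upstream, dips next to the start at 7 genes and stays high into the gene at all but TDH1.

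The upper part of the group, from aldolase to phosphoglycerate kinase without the TDH genes, was covered almost throughout. FBA1, the aldolase that yields the triose phosphates, had body coverages of 94.2 and 95.4% (HPRT1 YAC), 95.6 and 92.6% (HPRT1 integrated), 98.9 and 94.8% (HPRT1R YAC) and 93.1 and 95.6% (HPRT1R integrated). Its 8 libraries lay close together, and each had a single peak that ran across the start. That peak was also the longest of the group, up to 3088 bp, and in 6 libraries it reached back over the start of MPE1, the next gene upstream. Its summit stood between 125 and 857 bp into FBA1 in 7 libraries and at -1999 in HPRT1 integrated replicate 2, so in that library the strongest point belongs to the region of MPE1.

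TPI1, the triosephosphate isomerase, had body coverages of 83.0 and 88.5% (HPRT1 YAC), 90.0 and 89.3% (HPRT1 integrated), 83.1 and 86.2% (HPRT1R YAC) and 75.9 and 82.9% (HPRT1R integrated). In 4 libraries 1 peak ran across its start, and in the other 4 the signal was split into an upstream peak, with summits at a median of -266.5, and a peak within the gene that began at 61 to 68 bp. PGK1, the phosphoglycerate kinase that gives the first ATP of the pathway, had 95.0 and 85.8%, 95.0 and 93.8%, 81.7 and 90.6%, and 95.6 and 93.7% in the same order. Its peak was the strongest of the group by rank, and in the 6 libraries where 1 peak ran across the start its summit had a median position of -306, upstream of the gene. In 3 libraries the PGK1 peak also reached into the window from 200 bp before to 500 bp after the start of its divergent neighbour ADP1, and in 2 of them it covered that start. GPM1, the phosphoglycerate mutase, was covered for 98.7 and 98.3% in the HPRT1 YAC libraries and for 100% in the other 6. One peak crossed its start in all 8 libraries and ended between 730 and 760, at the end of the gene.

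An uncovered gap next to the start recurred at 7 of the 10 genes. In 38 of the 80 pairs of gene and library, an upstream peak and a peak over the gene were separated by a stretch without a call, which began at a median of -168 and ended at a median of 23 bp, with a median width of 214 bp. ENO2 had it in all 8 libraries, from between -254 and -197 to between 4 and 57. TDH3 and CDC19 had it in 7 libraries each, ENO1 in 6, TDH2 and TPI1 in 4 each and PGK1 in 2. How closely the edges repeated differed between genes. The gap of TDH2 began between -138 and -134 and ended between 42 and 48, whereas that of CDC19 began anywhere from -360 to -202, that of TDH3 began from -244 to -155, and that of ENO1 ended from 18 to 102. FBA1 and GPM1 had no such gap in any library, and TDH1 had no peak in the gene that could bound one. The share of all genes with such a gap was not counted. A lack of calls directly before the start is common elsewhere too. The stretch from -100 to -1 was wholly uncovered in 32.0% of the pairs of gene and library in genes of like length. It was so in 33.6% over all genes and in 56.25% over the 10 genes. The last share includes TDH1, which was uncovered there in all 8 libraries but had no such gap, so it is not a share of gaps.

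In windows set after the values were seen, the stretch from -400 to -251 was under peaks for 93.0% over the 10 genes and 8 libraries, against 46.8% in genes of like length. Each of the 10 genes had some coverage there in all 8 libraries, 8 of them at 95.9 to 100% on average, with GPM1 at 69.7% and CDC19 at 65.1%. The stretch from -100 to -1 was covered for 42.6%, against 60.4% in genes of like length, and from 100 to 399 for 88.3%, against 64.1%. The mean of the 10 genes was thus higher than that of genes of like length on both sides of the start and lower directly before it. Single genes departed from this: FBA1 and GPM1 were covered for 100% and PGK1 for 75.0% from -100 to -1, and TDH1 for 0% from 100 to 399. No p is given, as the windows followed from the data. The upstream peaks of TPI1, TDH2, TDH3, ENO1 and CDC19 overlapped the start window of no other protein-coding gene. Those of TDH1 and ENO2 overlapped the start windows of the open reading frames YJL052C-A and YHR173C in all 8 libraries. The start of YHR173C itself, at -174 from ENO2, was under none of the upstream ENO2 peaks, and the start of YJL052C-A, at -268 from TDH1, was covered in 6 of the 8 libraries.

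The 3 TDH genes encode glyceraldehyde-3-phosphate dehydrogenase, the enzyme that makes NADH in glycolysis, and they differed sharply in where peaks lay. TDH1 had a body coverage of 0% in all 8 libraries. Instead, a peak upstream ended between -276 and -182, and a peak downstream began 1290 to 1325 bp from the start, past the end of the gene, where it overlapped the start of IRC8 in all 8 libraries. The upstream peak stood at percentiles of 8.34 to 65.8 among the nuclear peaks of its library by fold, and the downstream peak at 28.8 to 64.7, so the flanks held peaks of ordinary strength.

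TDH2 had body coverages of 94.4 and 94.5% (HPRT1 YAC), 95.4 and 95.3% (HPRT1 integrated), 68.6 and 99.8% (HPRT1R YAC) and 91.9 and 89.6% (HPRT1R integrated). Only HPRT1R YAC replicate 1 fell well below the others, with 2 short peaks in the gene in place of 1 long one. TDH3 had 95.6 and 83.8%, 94.4 and 99.2%, 85.3 and 97.4%, and 99.2 and 90.4% in the same order. No library of TDH2 or TDH3 came near the 0% of TDH1. Within libraries, the difference in body coverage was -91.2 ± 9.60 percentage points for TDH1 minus TDH2 and -93.2 ± 6.05 points for TDH1 minus TDH3, with TDH1 lower in 8 of 8 libraries each (SD, n = 8; p = 0.00781 by a two-sided exact permutation test that flips signs, the smallest it can give; adjusted p = 0.00911 over the 7 paralog pairs compared). Over the gene and 500 bp on either side, which takes in the flanking peaks, the differences were -53.7 and -39.2 points (exact permutation p = 0.00781, adjusted p = 0.00911, n = 8). The test treats the libraries as the replicates, so it speaks to how repeatable the difference between these genes was.

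TDH2 and TDH3 could not be told apart in body coverage. The difference, TDH2 minus TDH3, was -1.98 ± 7.93 percentage points and ranged from -16.7 to 10.7 over the libraries, with TDH3 higher in 5 of 8 (exact sign-flip permutation p = 0.523, two-sided; adjusted p = 0.523, n = 8). Over the gene and 500 bp on either side, TDH2 was higher, by 14.5 points (exact permutation p = 0.0156, adjusted p = 0.0156, n = 8). That window also takes in the peak downstream of TDH2, which was present in 7 libraries and overlapped the start of MHO1 in 5. The summits of the 6 peaks that lay inside TDH3 ran from 390 to 714 bp with a median of 694.5. Those of the 5 such peaks of TDH2, 2 of them from 1 library, ran from 144 to 701 bp with a median of 239, so the ranges overlapped, and this difference was not tested. The TDH genes are close in sequence, and how reads that match more than 1 copy were placed is not given in the sources used here, so the split of signal between them is uncertain.

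**Figure D3:**
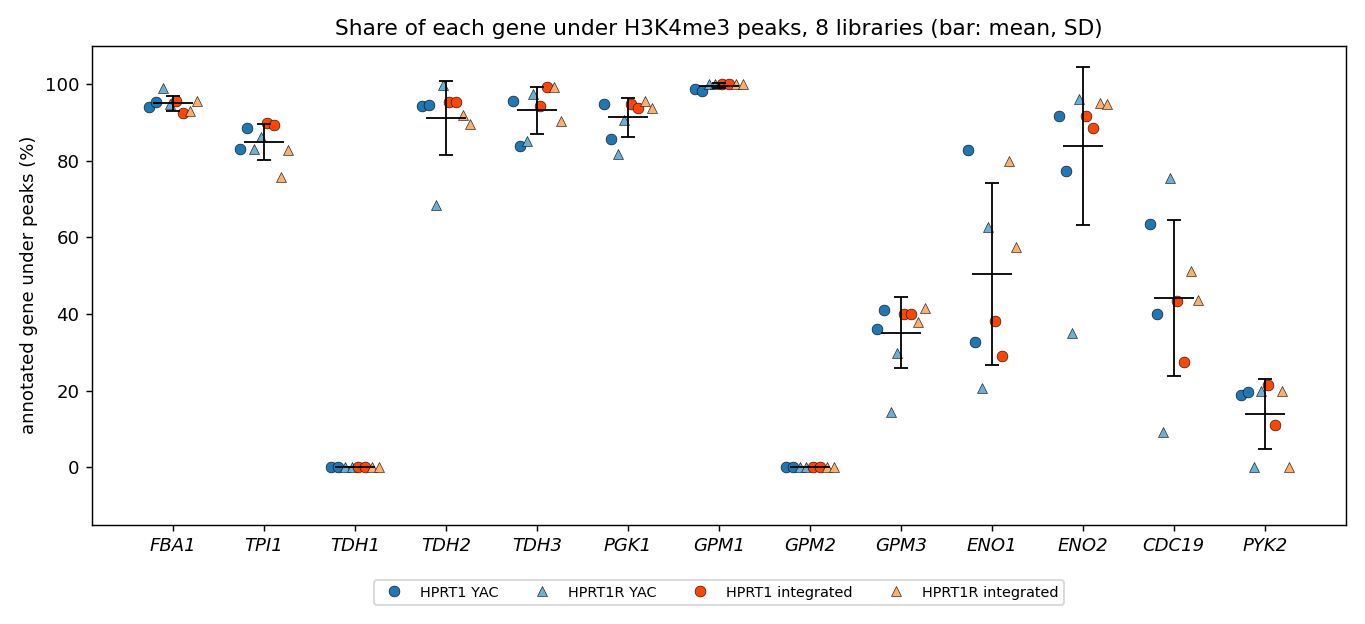
Percent of each annotated gene under H3K4me3 peaks in the 8 libraries (vertical axis) for the 10 lower glycolysis genes and the paralogs GPM2, GPM3 and PYK2; points are libraries, the long bar is the mean and the error bar the SD. TDH1 and GPM2 are at 0% in every library, GPM1 is at 98.3 to 100%, and ENO1, ENO2 and CDC19 have the largest SDs.

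The 2 enolase genes, which turn phosphoglycerate into phosphoenolpyruvate, were both marked, ENO2 over more of its length and by stronger peaks. ENO1 had body coverages of 83.0 and 32.8% (HPRT1 YAC), 38.3 and 28.9% (HPRT1 integrated), 20.7 and 62.6% (HPRT1R YAC) and 79.8 and 57.5% (HPRT1R integrated). Replicates of 1 group differed widely, and the peak inside ENO1, separate in 6 libraries, ended anywhere from 463 to 1108 bp. ENO2 had 91.8 and 77.4%, 91.7 and 88.7%, 35.1 and 96.0%, and 95.0 and 94.9% in the same order, with HPRT1R YAC replicate 1 alone below 77.4%. ENO1 was lower than ENO2 in 8 of 8 libraries, and ENO1 minus ENO2 was -33.4 ± 19.0 percentage points (SD, n = 8; exact sign-flip permutation p = 0.00781, two-sided; adjusted p = 0.00911). Without HPRT1R YAC replicate 1 the difference was -36.1 points.

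ENO2 also had the same layout in all 8 libraries: a peak upstream, a peak inside the gene that began at 5 to 58 bp, and a peak downstream, in the start window of the copper transporter gene CTR2. The peak inside ENO2 had its summit at a median of 291 bp and stood at a median percentile of 76.4, with 32.8 in HPRT1R YAC replicate 1. That of ENO1 had its summit at 270.5 bp and a median percentile of 36.8 over the 6 libraries in which it was separate. The enolase genes, too, are near copies of each other, and the same limit on shared reads holds.

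CDC19, the pyruvate kinase that ends the pathway, had the weakest peaks among the 9 genes marked in all libraries. Its body coverages were 63.5 and 40.1% (HPRT1 YAC), 43.4 and 27.4% (HPRT1 integrated), 9.25 and 75.4% (HPRT1R YAC) and 51.2 and 43.8% (HPRT1R integrated). The values spread widely, and HPRT1R YAC replicate 1 was lowest. The peak within the gene, separate in 7 libraries, began at a median of 19 bp, had a median summit at 282 bp and stood at a median percentile of 14.1.

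PYK2, the minor pyruvate kinase gene, had body coverages of 18.9 and 19.7%, 21.4 and 11.0%, 0 and 19.8%, and 19.9 and 0% in the same order, so that it was unmarked in 2 libraries. CDC19 exceeded it in 8 of 8 libraries, by 30.4 ± 16.2 percentage points (SD, n = 8; exact sign-flip permutation p = 0.00781, two-sided; adjusted p = 0.00911). In the strength of the start peak, the difference of 11.4 ± 17.1 percentiles did not pass (higher for CDC19 in 7 of 8 libraries; exact sign-flip permutation p = 0.0859, adjusted p = 0.0859, n = 8). It passed without HPRT1R YAC replicate 2 (14.6 percentiles, exact permutation adjusted p = 0.0156), with ranks by −log10 q (14.8 percentiles, exact permutation adjusted p = 0.0234) and with the wider window of the gene and 500 bp on either side (16.6 percentiles, exact permutation adjusted p = 0.0365). With a −log10 q of at least 5 it did not pass (9.76 percentiles, exact permutation adjusted p = 0.0938). Nor did it with equal peak numbers (8.71 percentiles, exact permutation adjusted p = 0.172) or on leaving out any other single library.

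The minor mutase paralogs GPM2 and GPM3 stood far below GPM1. GPM2 had no peak within 500 bp in any library. GPM3 was marked at its start in 8 libraries, with a body coverage of 35.1% ± 9.17 against 99.6% ± 0.724 for GPM1 (SD, n = 8 each). GPM1 was higher by 99.6 ± 0.724 points than GPM2 and by 64.5 ± 9.38 points than GPM3, in 8 of 8 libraries each (exact sign-flip permutation p = 0.00781, two-sided; adjusted p = 0.00911, n = 8).

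The strength of the peaks was compared by rank within each library. For each gene the strongest peak in the window from -200 to 500 was given its percentile, by the authors' fold, among all nuclear peaks of the same library, and 0 where there was none. PGK1 stood highest at 83.6 ± 6.27, followed by ENO2 at 78.6 ± 8.51, TPI1 at 70.9 ± 7.76, TDH2 at 66.4 ± 8.57 and FBA1 at 60.5 ± 11.7 (percentiles, SD, n = 8 each). Then came TDH3 at 53.9 ± 14.8, GPM1 at 49.8 ± 12.5, ENO1 at 45.8 ± 8.36, CDC19 at 19.7 ± 12.2 and TDH1 at 4.17 ± 11.8 (percentiles, SD, n = 8 each). Neighbours in this order down to ENO1 differed by less than their spread, while CDC19 lay below ENO1, and TDH1 below CDC19, by more than the SD of either. The mean folds ran from 2.87 ± 0.387 at PGK1 to 1.70 ± 0.162 at CDC19 (SD, n = 8 each). The median folds of the libraries were 1.86 to 2.36. PGK1, ENO2, TPI1 and TDH2 had mean folds above this range, and CDC19 had a mean fold below it. GPM1, the gene with the highest coverage, stood seventh in strength. ENO1, CDC19 and TDH1, the 3 genes with the lowest coverage, also stood last in this order. For TDH1 that place is no separate observation, since the rule gives 0 where no peak lies in the window.

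**Figure D4:**
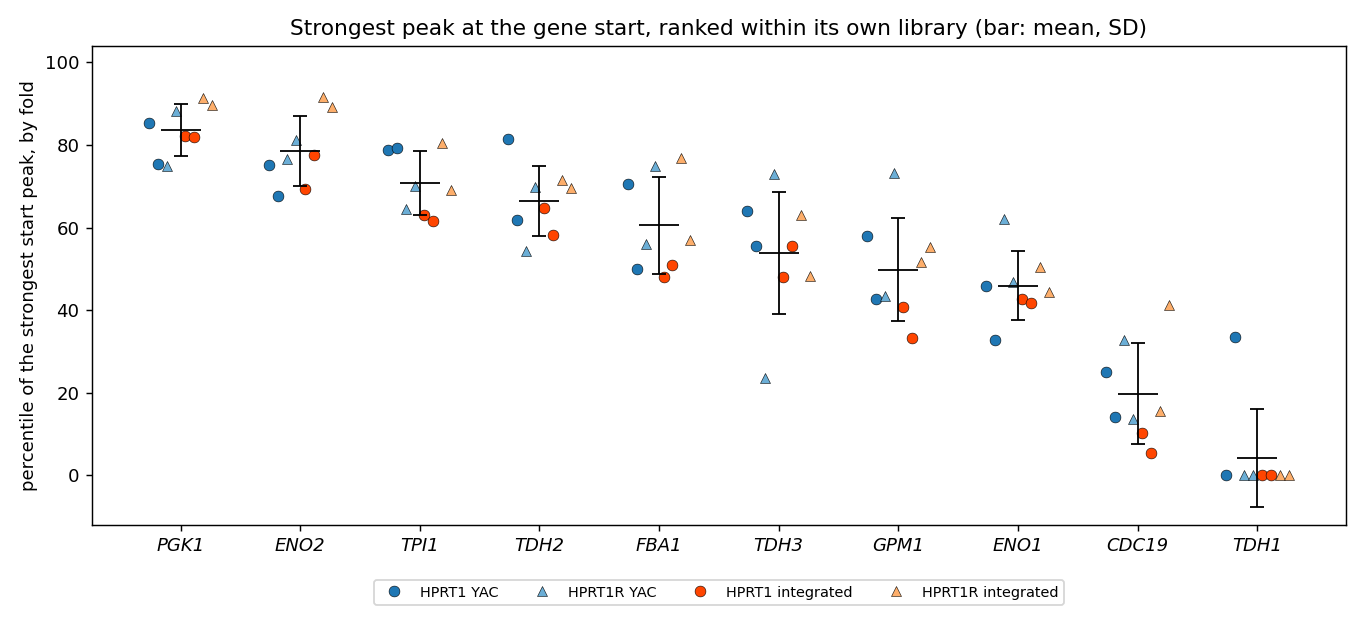
Percentile, by fold within the own library, of the strongest peak from -200 to 500 bp of the gene start (vertical axis) for the 10 genes in order of their mean; points are the 8 libraries, the long bar is the mean and the error bar the SD. PGK1 and ENO2 lead with means of 83.6 and 78.6, CDC19 follows far behind ENO1, and TDH1 is at 0 in 7 libraries.

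The start peak of ENO1 stood at percentiles of 45.9 and 32.8, 42.7 and 41.6, 62.2 and 46.9, and 50.3 and 44.4, and that of ENO2 at 75.3 and 67.7, 69.4 and 77.6, 76.7 and 81.2, and 91.6 and 89.2. The lowest library of ENO2 lay above the highest of ENO1. In HPRT1R YAC replicate 1 the ENO2 value belongs to its upstream peak, which ended at -198, just inside the window. The peak inside ENO2 stood at 32.8 there, below the 62.2 of ENO1. The summits of the ENO1 start peaks had a median position of -382.5 and those of ENO2 of 291. The values thus compare in part an upstream peak with a peak inside the gene. The peak of TDH2 stood at 81.4 and 61.8, 64.7 and 58.2, 54.2 and 69.8, and 71.6 and 69.5, and that of TDH3 at 64.0 and 55.4, 48.0 and 55.6, 23.6 and 72.9, and 63.1 and 48.2. The ranges of these TDH genes overlapped, and HPRT1R YAC replicate 1 was the lowest for both. Between paralogs, the difference in strength was -32.7 ± 9.37 percentiles for ENO1 minus ENO2, -62.2 ± 16.0 for TDH1 minus TDH2 and -49.7 ± 18.6 for TDH1 minus TDH3, with the first gene lower in 8 of 8 libraries each (SD, n = 8; exact sign-flip permutation p = 0.00781, two-sided; adjusted p = 0.0109). GPM1 exceeded GPM2 by 49.8 ± 12.5 and GPM3 by 38.1 ± 15.7 percentiles, with the same p and adjusted p (exact permutation, n = 8). Without HPRT1R YAC replicate 1, ENO1 minus ENO2 was -35.3 percentiles (exact permutation p = 0.0156, adjusted p = 0.0219, n = 7). The TDH1 values depend on the window. With the strongest peak of the gene or 500 bp on either side, which counts the flanking peaks, TDH1 minus TDH2 was -16.0 percentiles (exact permutation p = 0.0156, adjusted p = 0.0273, n = 8), and TDH1 minus TDH3 was -3.47 percentiles and did not pass (exact permutation p = 0.586, adjusted p = 0.586, n = 8). TDH2 exceeded TDH3 by 12.5 ± 11.0 percentiles in 7 of 8 libraries (exact permutation p = 0.0234, adjusted p = 0.0273, n = 8). This call rests on having all 8 libraries: it was lost on leaving out any 1 of 6 libraries, with exact permutation adjusted p = 0.0547 each and differences of 9.97 to 13.4 percentiles. These were HPRT1 YAC replicates 1 and 2, HPRT1 integrated replicate 1, HPRT1R YAC replicate 1 and HPRT1R integrated replicates 1 and 2.

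The position of the strongest start peak was too variable to separate paralogs. The strongest peak was a separate upstream peak in some libraries and a peak inside the gene in others. For TDH3 its summit lay at 655 in HPRT1 YAC replicate 1 and at -352 in replicate 2. For ENO2 it lay at -412 in HPRT1R YAC replicate 1 and at 269 in HPRT1 YAC replicate 2. Where 1 peak ran across the start, its summit could lie on either side. The libraries of 1 gene therefore differed widely. ENO1 minus ENO2 was -583 ± 477 bp (ENO1 farther upstream in 6 of 8 libraries; exact sign-flip permutation p = 0.0312, adjusted p = 0.125 over 4 pairs, n = 8), and TDH2 minus TDH3 was -384 ± 587 bp (exact permutation p = 0.102, adjusted p = 0.167, n = 8). Without HPRT1 YAC replicate 2 the latter was -525 bp and passed (exact permutation p = 0.0156, adjusted p = 0.0469). CDC19 minus PYK2 was 138 ± 177 bp over 6 libraries (exact permutation p = 0.125, adjusted p = 0.167, n = 6), and GPM1 minus GPM3 was 103 ± 217 bp (exact permutation p = 0.211, adjusted p = 0.211, n = 8). TDH1 had a start peak in 1 library and GPM2 in none, so their pairs were not tested. A rule that asked for a summit from 0 to 500 bp in all 8 libraries was met by 1 of the 10 genes, ENO2, and by 16.3% of all genes.

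No separation of the conditions was seen in the body coverage of the 10 genes, which is close to the small shares over all genes given below. Body coverage of none of them was higher in every YAC or in every integrated library, against 4.45% of all genes whose groups did not overlap (0.716% higher in every YAC and 3.73% higher in every integrated library). ENO2 had 75.1% ± 27.8 on the YAC and 92.6% ± 3.01 when integrated (SD; exact permutation test, n = 4 each, p = 0.343, adjusted p = 1). The YAC spread came with the 35.1% of HPRT1R YAC replicate 1. PGK1 had 88.3% ± 5.77 and 94.5% ± 0.938 (SD; exact permutation test, n = 4 each, p = 0.114, adjusted p = 0.914). Between the sequences none of the 10 genes had groups that did not overlap either, against 0.850% of all genes (0.283% higher in every HPRT1R and 0.566% higher in every HPRT1 library). TPI1 came closest, with 82.0% ± 4.36 in HPRT1R and 87.7% ± 3.18 in HPRT1 libraries (SD; exact permutation test, n = 4 each, p = 0.0857, adjusted p = 1). With 4 against 4 libraries the exact two-sided test cannot go below 0.0286, and over all 6002 genes 0.00% passed after adjustment in either comparison (by the unadjusted p, 267 and 51 genes had p under 0.05). These values therefore do not show that the conditions mark the genes alike.

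A few other genes of the pathway, given from fixed lists, were marked less evenly. Of 6 upper glycolysis genes, 3 were marked at the start in all 8 libraries: PFK2 and PFK1, the subunits of phosphofructokinase, at percentiles of 87.4 ± 8.63 and 51.9 ± 12.8, and PGI1, the phosphoglucose isomerase, at 78.8 ± 11.9 (SD, n = 8 each). HXK2 and GLK1, hexose kinases, were marked in 7 libraries, the missing one being HPRT1R YAC replicate 1 for both. HXK1, the hexokinase that glucose represses, had no peak within 500 bp in any library. The median body coverage of this list was 30.4%, against 88.0% for the lower glycolysis genes. These genes are in part longer: PFK1 and PFK2 span 2964 and 2880 bp.

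Of 6 regulator genes, 5 were marked in all libraries, led by GCR2 at a percentile of 96.0 ± 2.04 and RAP1 at 83.6 ± 5.99, while GCR1 stood at 19.4 ± 12.9 (SD, n = 8 each) and TYE7 was marked in 6. Of 7 minor paralogs, 2 were marked in all, GPM3 and EMI2, and 4 in none: GPM2 and the enolase-related ERR1, ERR2 and ERR3, which resemble each other so that reads may be split or lost. The 4 genes of gluconeogenesis divided by step. PYC1 and PYC2, the pyruvate carboxylases, were marked in all libraries. FBP1 and PCK1, the glucose-repressed enzymes that reverse glycolysis, had no start peak in any library. FBP1 had a peak in its later part in all 8 libraries, which in 6 reached the start window of PSY3, the next gene. PCK1 had a peak inside the gene in 3, all of them YAC libraries (body coverage 18.8, 10.2, 0 and 12.7% in YAC and 0% in the 4 integrated ones; exact permutation test, p = 0.143, adjusted p = 0.914, n = 4 each). Of the 4 glycerol branch genes, which draw on the triose phosphates, GPD1, GPD2 and GPP1 were marked in all libraries and GPP2 in 7. The median body coverage of this list was 67.9%. GPP1 reached 95.3% ± 1.03 and GPD2 79.9% ± 6.04, while GPP2 had 55.9% ± 28.6 and GPD1 55.4% ± 16.3 (SD, n = 8 each). High coverage of the gene was thus not confined to the lower glycolysis genes.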

How the data were processed

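H3K4me3 peak lists of 8 libraries were used, grouped by sample title. The authors deposited 1 list per sample. The submitters' processing notes name the build sacCer3 and the tools MACS2 2.1.0, Bowtie2 2.2.9, deepTools 3.5.0, SAMtools 1.9 and bcl2fastq 2.20. How the caller was set, which mapping quality was required and whether it used the IgG samples were not given in the sources used here. Per peak, the authors deposited a fold (a ratio of observed to expected pileup), p and q-values as −log10, and a score derived from q; these are the authors' own values, used only to rank and filter peaks within a list. Coordinates were made 1-based. Genes came from the RefSeq table of R64, the assembly that sacCer3 names, with strand read from the systematic names; 96.4% of gene lengths are multiples of 3, so starts are start codons. No sequence tables were used here. Pileups were solved from fold and p, assuming both pileups plus 1 and a Poisson tail, and kept within 0.01 of −log10 p. Paralogs were compared by exact sign-flip tests (at least 6 libraries) and conditions by exact permutation tests over all genes, with Benjamini-Hochberg adjustment. Tests were checked on simulated data with Python 3.11.15, numpy 2.4.6, pandas 2.3.3 and scipy 1.17.1. Alternatives were a −log10 q of at least 5, equal peak numbers (3377), other windows and overlaps, ranking by q, a replicate block and leaving out each library; the window from 0 to 500 bp was added after seeing the data. All 10 genes were named. Members and lists were chosen with earlier results of these data known.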

Additional observations from a re-analysis of the deposited data

Results flagged for a closer look

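The share of TPI1 under peaks changed with configuration in opposite directions in the 2 sequences: YAC minus integrated was -3.88 percentage points with HPRT1, where both YAC libraries lay below both integrated ones, and 5.29 points with HPRT1R, where both lay above. In HPRT1R the nearest YAC and integrated libraries stood at 83.1 and 82.9%. The difference between these changes was not tested. Such opposite changes were looked for in 10 genes and 2 measures, and the share of all genes that show them was not counted. With 2 libraries on each side, such a pattern can readily arise by chance. The start peak of TDH1 stood at a percentile of 33.4 in HPRT1 YAC replicate 2 and at 0 in the other 3 YAC libraries, a gap that fills the whole range of the group; there the upstream peak ended inside the window, as described above. It was the only 1 of 40 groups so checked (10 genes, 2 measures, 2 configurations), and chance flags about 1 in 20.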

How the results depend on the processing

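Of 232 values under alternatives to 21 results, 212 kept their direction and their side of the threshold, or stayed within 1.5 times for counts. TDH2 minus TDH3 in body coverage was 4.39 points with a −log10 q of at least 5, 14.5 over the gene and 500 bp on either side, and -3.79 to 0.129 without 1 library. CDC19 minus PYK2 in summit position was -301 bp and TDH1 minus TDH3 in strength -3.47 percentiles with the wider window, which adds flanking peaks by construction. CDC19 minus PYK2 in strength was 14.8 percentiles by −log10 q rank, 16.6 with the wider window and 7.16 to 14.6 without 1 library. TDH2 minus TDH3 was 9.97 to 14.8 percentiles in strength and -525 to -288 bp in position without 1 library. A summit from 0 to 500 bp was found in all libraries for 1 of the 10 genes. The number of genes whose groups did not overlap in body coverage was 0 to 1 without 1 library in both comparisons. Without HPRT1 YAC replicate 1 it was PGK1 for YAC against integrated (7.48% of all genes) and TPI1 for HPRT1R against HPRT1 (2.98%). In the latter comparison it was ENO2 without HPRT1R YAC replicate 1 (2.62%) and TDH2 without HPRT1R YAC replicate 2 (1.97%). Except where a value above shows it, the cause was not tested. Paired by replicate number (replicate block), 0 of the 10 genes had 4 differences of 1 sign in either comparison, against 10.0 and 4.53% of all genes. The difference in body coverage between replicates 1 and 2 correlated between groups at -0.156 to 0.131, with 3 of 6 correlations below 0. Body coverage thus gave no sign that the numbers pair the libraries. It cannot tell whether same-numbered libraries were prepared together. Where a library has no peak, its depth is unknown.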
